A study of Mus musculus with 3 samples.

Results

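The cells described here are keratinocytes of the upper hair follicle found in single-cell RNA libraries of mouse abdominal dermis: 188 of 6022 cells that passed the filters, namely 20 in the NP library, 143 in the dpc16 library and 25 in the dpp42 library. They were selected on measured values. A cell had 200 or more detected genes, and mitochondrial transcripts made up no more than 10% of its UMIs (unique molecular identifiers, each counting 1 captured transcript). Krt5 and Krt14, the keratins of basal keratinocytes, together gave at least 0.5% of its UMIs, and the collagen genes Col1a1 and Col1a2 together less than 1%. At least 3 of the 5 markers Sostdc1, Sult5a1, Aqp3, Fst and Plet1 had a UMI. At most 2 of 6 bulge genes (Postn, Cd34, Lhx2, Krt24, Kcnk2 and Shisa2) were detected, and the infundibulum genes Krt79, Cst6 and Defb6 together gave less than 0.3%. The levels of these 18 genes are therefore a description of the selection and not a finding, and comparisons of the selected cells with other cells of the same libraries are descriptions too.

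The hair follicle is a pocket of epidermis that reaches into the dermis, and its upper part, the isthmus and junctional zone, lies between the bulge stem cells below and the infundibulum that opens onto the skin surface. Keratinocytes of this region keep the upper follicle and the sebaceous gland supplied with cells and can enter the surface epidermis after wounding. Sostdc1 encodes a secreted antagonist of BMP and Wnt signals, and Fst encodes follistatin, a secreted antagonist of activins. Aqp3 is a channel for water and glycerol, Plet1 is a surface protein used to mark the junctional zone, and Sult5a1 belongs to the cytosolic sulfotransferases.

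Each library came from C57BL/6 mice aged 8 to 12 weeks with the genotype Col1a2creERT2; R26H2B EGFP, that is a Cre recombinase switched on by tamoxifen, driven by collagen gene sequences of fibroblasts, with an H2B-EGFP reporter, and all 3 stages carried both alleles. The dpc16 library was taken at gestation day 16 and the dpp42 library at postpartum day 42, both after tamoxifen during pregnancy. The NP library was taken from non-pregnant mice 48 days after a 3-day tamoxifen treatment. Trypsin had parted the epidermis from the dermis before the dermal cells were captured with 10x version 2 chemistry, so the keratinocytes are those left in the dermal fraction, and the number of mice behind a library is not given. With 1 library per stage, stage and library cannot be told apart, no difference was tested, and every interval below is a 95% interval of counting error only.

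The libraries held 6031814 (NP), 21679047 (dpc16) and 5794940 (dpp42) UMIs in 1330, 4122 and 1196 barcodes, of which 1289, 3652 and 1081 were kept. The submitters state 1289, 3650 and 1081 cells. The shallowest dpc16 barcode had 2494 UMIs, against 1916 for NP and 1908 for dpp42. In cells with at least 1% of UMIs from Col1a1 and Col1a2 (fibroblast-gated cells: 78 in NP, 1055 in dpc16 and 83 in dpp42), Krt14 was detected in 21.8% of NP, 61.8% of dpc16 and 28.9% of dpp42 cells. After each cell was thinned to 1900 UMIs the Krt14 shares were 15.4%, 40.3% and 25.3%. The part that such transcripts of other cells play in the levels below was not tested. Libraries shared 6 kept barcodes (dpc16 and NP), 4 (dpp42 and dpc16) and 1 (dpp42 and NP), and 1 shared barcode was a selected cell in both dpc16 and NP.

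The selected cells made up 1.55% of kept cells in NP (exact Clopper-Pearson interval 0.95 to 2.39), 3.92% in dpc16 (3.31 to 4.60) and 2.31% in dpp42 (1.5 to 3.40). The dpc16 share was 2.52 times the NP share (1.57 to 4.26) and the dpp42 share 1.49 times the NP share (0.795 to 2.83). The dpp42 share was 0.591 times the dpc16 share (0.370 to 0.908). These ratios rest on the choice of markers. In keratin-gated cells with at most 1 of the 5 markers, Aqp3 was detected in 21.1% of dpc16 and 6.87% of NP cells, and Plet1 in 36.7% of dpc16 and 11.8% of NP cells. In cells with exactly 2 markers, Aqp3 was detected in 72.1% of dpc16 and 46.9% of NP cells, and Plet1 in 79.6% and 49.0%. A choice on at least 2 of Sostdc1, Sult5a1 and Fst alone gave 27 NP cells (2.09%), 84 dpc16 cells (2.30%) and 21 dpp42 cells (1.94%). With that choice, added after the data were seen, the dpc16 share was 1.10 times the NP share (0.704 to 1.76) and the dpp42 share 0.927 times the NP share (0.498 to 1.70), and both intervals include equal shares.

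**Figure D1:**
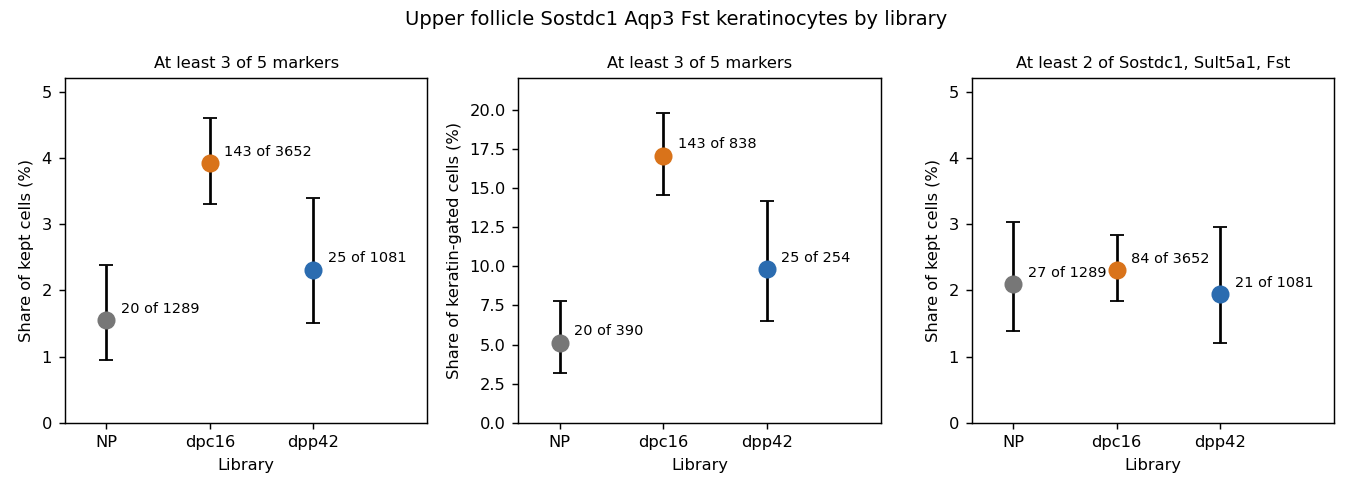
Share of cells chosen in each library (points, y axes in percent, with cell numbers beside them; bars are exact 95% Clopper-Pearson intervals), for the selection on 3 of 5 markers among kept cells and among keratin-gated cells, and for a selection on Sostdc1, Sult5a1 and Fst among kept cells. The dpc16 point lies highest in the first and second panels, with 143 cells, and in the third the 3 intervals overlap widely.

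The 5 markers did not occur together in the same proportions in the libraries. Aqp3 was detected in 20 of 20 NP, 134 of 143 dpc16 and 22 of 25 dpp42 cells, and Plet1 in 12, 118 and 12 cells. Sostdc1 was detected in 15 of 20 NP, 77 of 143 dpc16 and 18 of 25 dpp42 cells, Sult5a1 in 12, 82 and 14, and Fst in 11, 78 and 17. Aqp3 and Plet1 together were seen in 111 of 143 dpc16 cells but in 12 of 20 NP and 10 of 25 dpp42 cells, while Sostdc1 and Aqp3 together were seen in 15 of 20 NP, 70 of 143 dpc16 and 15 of 25 dpp42 cells. The pair of Aqp3 and Plet1 was thus most frequent in the dpc16 cells, and the pair of Sostdc1 and Aqp3 in the NP cells. Exactly 3 markers were detected in 12 NP, 92 dpc16 and 19 dpp42 cells, 4 in 6, 42 and 4, and all 5 in 2, 9 and 2.

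In counts per 1000000 UMIs summed over the selected cells (CPM), Sostdc1 stood at 331 in NP, 240.1 in dpc16 and 514 in dpp42. Fst stood at 358, 353 and 514 CPM in the same order. The values of Aqp3 were 517 CPM in NP, 732 in dpc16 and 579 in dpp42, those of Plet1 529.9, 879 and 383. Sult5a1 was the lowest of the 5 by CPM, with 225 in NP, 166 in dpc16 and 215 in dpp42. Just outside the threshold, cells with exactly 2 markers (49 in NP, 201 in dpc16 and 36 in dpp42) had 127, 41.3 and 151 CPM of Sostdc1 and 78.1, 54.5 and 112 CPM of Fst, but 405, 1335 and 283 CPM of Plet1. The dpc16 cells just outside thus held more Plet1 than the selected ones and much less Sostdc1 and Fst. By GENCODE M21 on GRCm38, Sostdc1 lies at chr12:36314139-36318452 on the plus strand and Plet1 at chr9:50494525-50505482 on the plus strand. Aqp3 lies at chr4:41092722-41098183, Fst at chr13:114452290-114458951 and Sult5a1 at chr8:123140192-123158315, all on the minus strand, and all 5 are protein-coding genes.

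The name was checked on genes the selection did not use. Sox9, a transcription factor of the follicle outer root sheath and stem cells, stood at 278 CPM in NP, 449 in dpc16 and 402 in dpp42, against 57.8, 218 and 231 CPM in the other keratinocytes. Lrig1, a stem cell marker of the junctional zone, was sparse at 53.0, 40.4 and 46.7 CPM, against 36.1, 17.7 and 24.2 CPM in the other keratinocytes. Lgr6, a marker of the isthmus, stood at 66.2, 17.7 and 74.8 CPM against 37.3, 5.90 and 33.1, and Gata6, a factor of the sebaceous duct and upper follicle, at 13.2, 20.2 and 46.7 CPM against 2.41, 4.22 and 4.41. All 4 genes stood above the other keratinocytes in each library, but Lrig1, Lgr6 and Gata6 rest on 1 to 32 UMIs per library. Infundibulum-gated cells, defined below, had 52.4, 132 and 75.2 CPM of Lrig1 and 209.5, 93.2 and 32.2 CPM of Gata6. Klk10, a kallikrein peptidase of the upper follicle, did not follow them: it had 0 UMIs in 20 NP cells (a count of 0 allows up to 39.7 CPM), 1 UMI in dpc16 and 8 in dpp42. Igfbp3, which binds insulin-like growth factors, was lower in the selected cells, at 358, 196 and 93.5 CPM against 568, 445 and 375. The other keratinocytes passed the same gates with at most 1 of the 5 markers and numbered 262, 251 and 128.

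Among the markers of other cell types, those of fibroblasts gave the largest sums in the selected cells. The 9 fibroblast genes summed to 331 CPM in NP, 711 in dpc16 and 327 in dpp42, with Pdgfra and Mgp at 0 UMIs in NP and dpp42 and all 9 detected in dpc16. At least 1 of them had a UMI in 13 of 20 NP, 114 of 143 dpc16 and 19 of 25 dpp42 cells. In the other keratinocytes they summed to 183, 564 and 414 CPM. The 7 endothelial genes summed to 53.0, 11.4 and 65.4 CPM, the 5 mural genes to 0, 32.9 and 37.4, the 10 leukocyte genes to 13.2, 26.5 and 0, and the 6 melanocyte genes to 0, 19.0 and 9.35. Haemoglobin and Alas2 transcripts summed to 0, 84.7 and 37.4 CPM, in 0, 50 and 3 cells. EGFP, which recombination releases in Col1a2-expressing cells, had 9 UMIs in 5 dpc16 cells and none in NP or dpp42. Selected cells had median depths of 2952.5, 4027 and 2607 UMIs, and 1, 15 and 3 of them had over 10000 UMIs. No doublets were removed.

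Set against the other keratinocytes of the same library, 36 of 2143 measured genes outside the selection were higher in all 3 libraries (1.68%) and 8 were lower in all 3 (0.373%). Measured means at least 20 UMIs over both groups and at least 50 CPM in 1 of them, and higher or lower means a ratio of at least 1.5 either way with an exact interval that leaves out 1. Ptn, the heparin-binding growth factor pleiotrophin, stood first when genes are ordered by the lowest of their 3 library ratios, with 503 CPM in NP, 663 in dpc16 and 1075 in dpp42 against 157, 179.6 and 203. In single libraries Dusp6 had higher ratios in NP and dpc16, at 7.94 and 3.79, and Phlda1 in dpp42, at 14.4. The Ptn ratios were 3.22 (2.18 to 4.65), 3.69 (3.14 to 4.35) and 5.30 (4 to 7.05). Ptn was detected in 70.0% of NP, 80.4% of dpc16 and 84.0% of dpp42 cells, and in fibroblast-gated cells in 19.2, 28.5 and 26.5%. After thinning to 1900 UMIs these shares were 60.0, 62.9 and 64.0% of the selected cells and 12.8, 15.6 and 22.9% of the fibroblast-gated cells. Ptn did not set the selected cells apart from the bulge, since the bulge-gated cells defined below had 1636, 1969 and 1583 CPM.

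Alcam, a cell adhesion molecule of the immunoglobulin family, stood at 79.5, 83.4 and 150 CPM against 19.3, 28.7 and 37.5. Efnb2, the ephrin-B2 ligand of Eph receptors, stood at 172, 129 and 187 CPM against 30.1, 46.4 and 59.5. Cxadr and Cldn1 belong to tight junctions, and Cxadr stood at 397, 250.2 and 308 CPM against 136, 121 and 165. Among the 20 genes were also enzymes that clear reactive compounds, while the oxidative stress list had 1 higher call among 4 measured genes. The glutathione transferase Gstm5 stood at 119, 114 and 140.2 CPM against 34.9, 42.2 and 44.1, and Gstm1 at 119, 189.5 and 140.2 CPM against 38.5, 63.2 and 57.3. Adh7, an alcohol dehydrogenase that oxidises retinol, stood at 172, 114 and 103 CPM against 60.2, 37.9 and 39.7. Aldh3a1, an aldehyde dehydrogenase, stood at 146, 224 and 121 CPM against 36.1, 102 and 48.5. Among these enzymes Gstm5 stood lower in the fibroblast-gated cells of each library, at 46.4, 68.5 and 57.1 CPM, but it was higher in infundibulum-gated cells, at 629, 337 and 333 CPM, so it did not set the selected cells apart from these. Fibroblast-gated cells had 269, 251 and 224 CPM of Gstm1, 139, 409 and 329 CPM of Adh7 and 176, 184 and 429 CPM of Aldh3a1, and the part of fibroblast transcripts in the selected cells' levels was not tested. Early-response genes with the same direction included Dusp6 (a phosphatase of ERK), Phlda1, Ier3, Gadd45b, the AP-1 subunit Fosl1 and the small Maf factor Maff. Phlda1 stood at 291, 734 and 318 CPM against 42.2, 269.8 and 22. The direction of several early-response genes rested on the choice of cells. With at least 2 of Sostdc1, Sult5a1 and Fst, the lowest of the 3 library ratios was 0.433 for Phlda1, 0.844 for Fosl1 and 0 for Maff, and that of Cldn1 was 0.881. Ptn, Gstm1, Gstm5, Adh7 and Aldh3a1 stayed above 1 in every library under the 8 other settings in which they were recomputed.

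Of the 8 genes lower in every library, Gata3, a transcription factor of epidermal differentiation, stood at 185, 172 and 224 CPM against 489, 333 and 467. Il1r2, the decoy receptor of interleukin 1, stood at 66.2, 112 and 65.4 CPM against 206, 293 and 163. The others were Igfbp3, Ndufa4l2, Dgcr6, Cfap57, the skin calmodulin Calm5 and the inflammasome adaptor Pycard. Of all measured genes 1.68% were higher in every library. In the lists of genes by function, 2 of 17 measured AP-1 and immediate early genes, 2 of 11 measured heat shock genes, and 1 measured gene each among the ER chaperone, ATF4, junction, oxidative stress and activated keratinocyte lists were higher in every library. Of 3 measured genes of the upper follicle list 1 was higher, Sox9, and 1 lower, Igfbp3. None of the 12 measured basement membrane and hemidesmosome genes and none of the 9 measured spinous genes was higher or lower in every library.

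**Figure D2:**
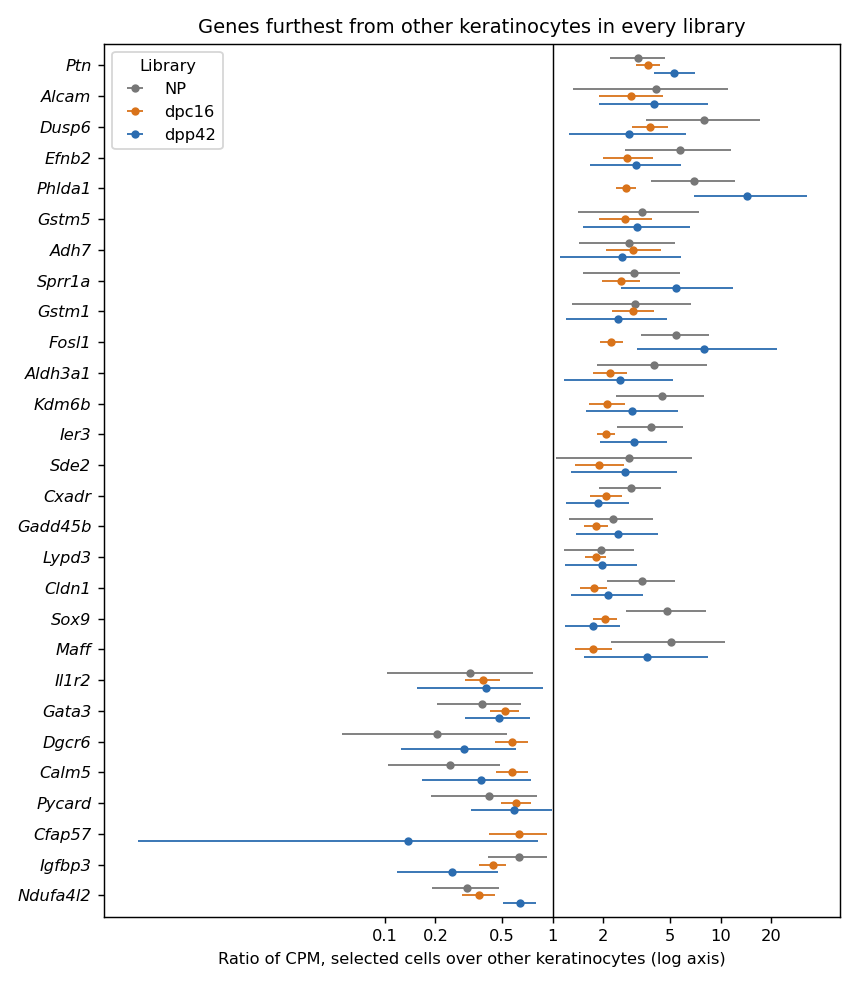
Ratio of CPM, selected cells over other keratinocytes (x axis, log scale, unitless), in NP, dpc16 and dpp42 for the 20 genes highest and the 8 lower in every library (y axis); bars are exact 95% intervals of counting error. Genes are ordered by the least favourable library, by which Ptn comes first with ratios of 3.22, 3.69 and 5.30, and Cfap57 has no NP point because it had 0 UMIs in the selected NP cells.

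Neighbouring follicle compartments were defined by the same gates: bulge-gated cells had at least 3 of the 6 bulge genes (45 NP, 150 dpc16 and 48 dpp42 cells), and infundibulum-gated cells had at least 0.3% of Krt79, Cst6 and Defb6 (13, 80 and 14). Against bulge-gated cells, 17 of 1227 measured genes were higher in all 3 libraries (1.39%) and 40 lower (3.26%). Ly6d, a surface marker of keratinocytes, stood at 1735, 2549 and 2579 CPM against 792, 1194 and 134 in bulge-gated cells, and Epgn, the EGF-family ligand epigen, at 358, 189.5 and 206 CPM against 82.2, 104 and 0. The lower genes included known bulge genes. Sfrp1, a secreted Wnt inhibitor, stood at 39.7, 24.0 and 46.7 CPM against 538, 386 and 565, and the calcium-binding S100a4 at 92.7, 89.7 and 131 CPM against 1629, 570.5 and 1074. Lgr5, a stem cell marker of the lower follicle, had 0, 45.5 and 46.7 CPM against 157, 202 and 177. Krt15 stood at 4160, 6269 and 5654 CPM against 9816, 11832 and 8644, and Sox9 at 278, 449 and 402 CPM against 717, 1043 and 1230. Sox9 was thus above the other keratinocytes and below the bulge-gated cells in each library, but in cells with at least 4 markers its lowest ratio to the other keratinocytes was 0.927.

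Against infundibulum-gated cells, 28 of 656 measured genes were higher in all 3 libraries (4.27%) and 18 lower (2.74%). Ordered by the lowest of the 3 library ratios, Phlda1, Cyr61 and Mt2 came first among the higher ones. Phlda1 stood at 291, 734 and 318 CPM against 0, 77.7 and 21.5, and Mt2 at 3842, 1592 and 2785 against 367, 344 and 773. Mt1 and the early-response genes Atf3, Jun, Fosb, Nr4a1 and Dusp1 were higher too. Col17a1, Itga6 and Dst, which attach keratinocytes to the basement membrane, were also among the higher ones. Col17a1 stood at 941, 700.0 and 878 CPM against 445, 331 and 311, Itga6 at 556, 265 and 289.7 against 183, 129 and 139.6, and Dst at 596, 318 and 748 against 236, 148 and 258. Krt17, Sbsn and Cstb were among the lower ones. Krt17 stood at 729, 1198 and 1486 CPM against 2828, 3233 and 2663, Sbsn, a suprabasal secreted protein, at 291, 840.3 and 299 against 1021, 2324 and 5433, and Cstb, cystatin B, at 941, 868 and 598 against 3666, 3867 and 2491. The infundibulum-gated NP and dpp42 sums rest on 13 and 14 cells. In dpp42 1 of these cells held 46714 of the 93138 UMIs, so the dpp42 infundibulum-gated levels rest largely on it.

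**Figure D3:**
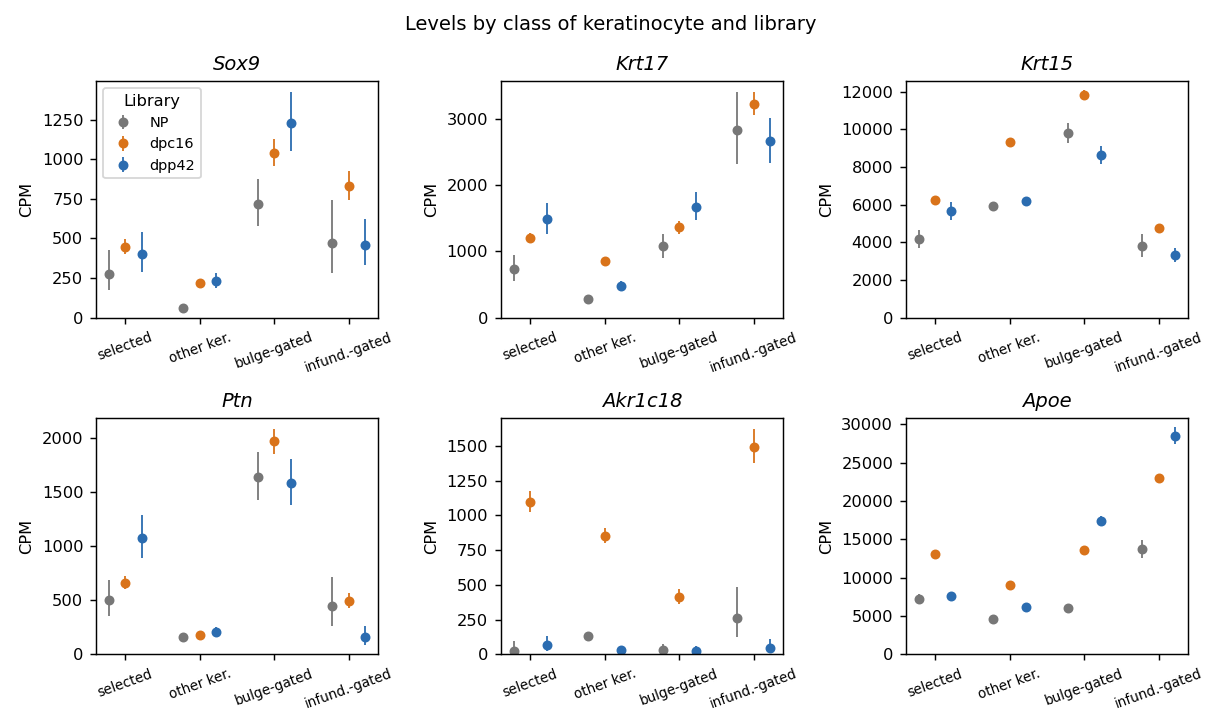
Level of 6 genes (y axes, CPM of summed UMIs) in the selected cells, other keratinocytes, bulge-gated and infundibulum-gated cells (x axes) of NP, dpc16 and dpp42; bars are exact 95% Poisson intervals of counting error. Sox9 and Krt15 are highest in bulge-gated cells and Krt17 and Apoe in infundibulum-gated cells, and Akr1c18 is highest in dpc16 in each class shown.

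In late pregnancy, the dpc16 cells held more transcripts of heat shock and immediate early genes than the NP cells, more of the progesterone-metabolising enzyme Akr1c18 and of the lipid carrier Apoe, and less of the metallothioneins Mt1 and Mt2. Of 3075 measured genes, 161 were higher (5.24%) and 273 lower (8.88%), so 37.1% of the calls were higher. Scaling by the median of ratios instead of by total UMIs moved all log2 ratios by 0.19 and gave 271 higher and 188 lower genes, so that 59.0% of the calls were higher. The median log2 ratio of the measured genes was -0.26. Of called genes also measured in the other keratinocytes, 81 of 151 were higher there too and 129 of 213 lower there too, while 10 and 5 had the opposite call. Among all 2788 genes measured in the other keratinocytes, 350 were higher and 634 lower. The NP sums rest on 75489 UMIs of 20 cells, of which the deepest gave 16.1%, and the dpc16 sums on 791413 UMIs. The summed fibroblast markers, at 711 CPM in dpc16 and 331 CPM in NP, lay on the higher side with many of these genes, and their part in the results was not tested.

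All 12 cytosolic heat shock genes of the list were measured, 8 of them with a higher and 0 with a lower call in dpc16. Their median log2 ratio was 1.14, against -0.26 over all measured genes, of which 5.24% were higher and 8.88% lower. Hspa1a, the inducible Hsp70, stood at 3648 CPM in dpc16 and 980.3 CPM in NP, a ratio of 3.72 (2.95 to 4.75), and had a UMI in 140 of 143 dpc16 and 11 of 20 NP cells. Hspb1, a small heat shock protein, stood at 4779 CPM in dpc16 and 1563 CPM in NP, a ratio of 3.06 (2.55 to 3.70). The co-chaperone Bag3 had 136 UMIs in 66 dpc16 cells and none in the 20 NP cells, at least 4.32-fold higher when 3 counts are set as the NP floor. Hsp90aa1 (ratio 2.52, 1.99 to 3.22) and Hspa8 (2.04, 1.68 to 2.52) shared the direction. In single cells the 12 genes together took a median of 1.75% of UMIs in dpc16 and 0.675% in NP, although the ranges of the cells overlapped. The same list had 8 of 12 genes higher in the other keratinocytes, and Hspa1a stood at 3917 CPM in dpc16 and 1344 CPM in NP in fibroblast-gated cells, so the difference was present in other cells of the dpc16 library too.

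All 18 AP-1 and immediate early genes were measured, 9 of them with a higher and 0 with a lower call in dpc16 (median log2 ratio 0.61). Over all measured genes the shares were 5.24% and 8.88%. Junb stood at 1876 CPM in dpc16 and 861 CPM in NP (ratio 2.18, 1.70 to 2.84), Jun at 2334 and 1219 CPM (1.91, 1.55 to 2.39), and Atf3, a stress-induced factor, at 2707 and 1537 CPM (1.76, 1.46 to 2.14). The antiproliferative gene Btg2 stood at 1679 CPM in dpc16 and 1073 CPM in NP (1.57, 1.25 to 1.98). Of the 18 genes, 7 were higher in dpc16 in the other keratinocytes too. In fibroblast-gated cells Jun stood at 855 CPM in dpc16 and 297 CPM in NP.

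All 3 metallothionein genes, which bind zinc and copper, were measured, and Mt1 and Mt2 were lower in dpc16. Mt1 stood at 2224 CPM in dpc16 and 5961 CPM in NP (ratio 0.373, 0.336 to 0.415), and Mt2 at 1592 and 3842 CPM (0.414, 0.364 to 0.472). Mt1 had a UMI in 128 of 143 dpc16 and 20 of 20 NP cells, and the 3 genes together took a median of 0.245% of UMIs per cell in dpc16 and 0.752% in NP. In the other keratinocytes all 3 were lower in dpc16, and in fibroblast-gated cells Mt1 stood at 2478 CPM in dpc16 and 16414 CPM in NP.

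**Figure D4:**
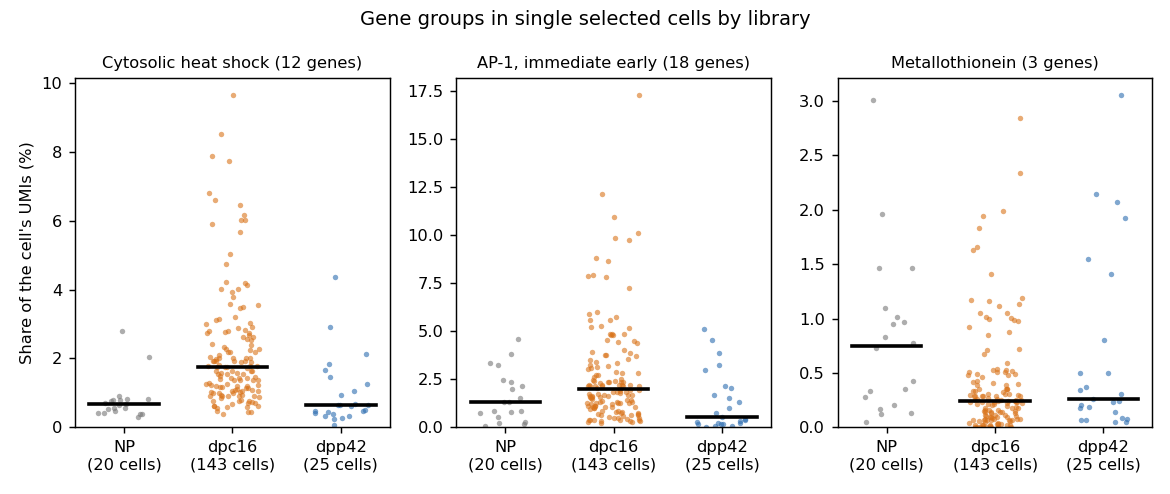
Share of each selected cell's UMIs (y axes, percent; 1 point per cell) taken by 12 heat shock, 18 AP-1 and immediate early and 3 metallothionein genes in NP, dpc16 and dpp42, with black lines at the medians over cells. The heat shock median is 1.75% in dpc16, above 0.675% in NP and 0.653% in dpp42, and the metallothionein median is highest in NP.

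The promoters of the genes that led these groups are shown because the members of these lists were called together. They were searched for the motifs of heat shock factors and of the metal-responsive factor MTF1, the known regulators of these families. Each is 300 bases from RefSeq on GRCm38.p6, from 250 bases before to 50 after the gene's start, written on the gene's strand, and capitals mark the motif on either strand. The heat shock motif was GAANNTTC, the core of paired nGAAn units, and the metal response motif was TGCACNC or TGCGCNC. Hspa1a (chr17:34972107-34972406, minus strand) held 1 GAANNTTC and Hspb1 (chr5:135887669-135887968, plus strand) held 2. Mt1 (chr8:94178839-94179138, plus strand) held 3 metal response motifs and Mt2 (chr8:94172368-94172667, plus strand) held 4, none overlapping another.
Hspa1a: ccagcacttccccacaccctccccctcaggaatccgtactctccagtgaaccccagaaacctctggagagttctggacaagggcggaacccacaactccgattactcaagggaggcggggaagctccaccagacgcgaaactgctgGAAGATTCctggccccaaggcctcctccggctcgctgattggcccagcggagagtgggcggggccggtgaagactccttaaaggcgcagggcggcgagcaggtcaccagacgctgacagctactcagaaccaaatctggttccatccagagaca
Hspb1: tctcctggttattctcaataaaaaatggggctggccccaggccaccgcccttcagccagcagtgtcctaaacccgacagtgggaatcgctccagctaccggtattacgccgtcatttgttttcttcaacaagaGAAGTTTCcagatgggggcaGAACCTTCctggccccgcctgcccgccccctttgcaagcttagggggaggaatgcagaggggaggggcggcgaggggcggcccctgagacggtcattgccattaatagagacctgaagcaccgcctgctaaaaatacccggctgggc
Mt1: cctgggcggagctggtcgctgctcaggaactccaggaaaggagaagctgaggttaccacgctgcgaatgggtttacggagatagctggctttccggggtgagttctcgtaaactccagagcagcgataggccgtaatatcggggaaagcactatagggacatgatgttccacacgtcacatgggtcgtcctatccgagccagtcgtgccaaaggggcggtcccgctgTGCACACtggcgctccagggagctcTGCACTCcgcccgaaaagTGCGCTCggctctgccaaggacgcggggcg
Mt2: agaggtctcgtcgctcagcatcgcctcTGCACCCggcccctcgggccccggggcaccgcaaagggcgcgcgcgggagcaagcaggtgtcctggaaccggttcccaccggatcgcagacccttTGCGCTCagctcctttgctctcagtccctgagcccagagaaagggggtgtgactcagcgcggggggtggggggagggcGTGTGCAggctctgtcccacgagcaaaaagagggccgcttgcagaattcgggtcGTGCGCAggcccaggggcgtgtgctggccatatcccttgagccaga
GAANNTTC was found in 7.86% of 32851 RefSeq promoters of the same length and 1 of the metal response motifs in 25.7%. Of the 12 heat shock genes 9 had a promoter in the table and 8 of these held GAANNTTC, and all 3 metallothionein promoters held a metal response motif. A match is a description of the letters and not a bound site.

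Akr1c18, an aldo-keto reductase that inactivates progesterone and is known from the mouse ovary at the end of pregnancy, was higher in dpc16, at 1099 CPM in 88 of 143 cells, against 26.5 CPM in 2 of 20 NP cells (ratio 41.5, 11.5 to 343, on 2 NP UMIs). The gene lies at chr13:4132615-4150654 on the minus strand of GRCm38. After thinning, 44.8% of the dpc16 cells and none of the 20 NP cells had a UMI. In fibroblast-gated cells, Akr1c18 stood at 174 CPM in dpc16 and 32.4 CPM in NP, with a UMI in 19.1% of dpc16 and 6.41% of NP cells after thinning. The other keratinocytes had 853 CPM in dpc16 and 135 CPM in NP, so the dpc16 level was high in both. Over the alternative settings the ratio in the selected cells ran between 13.4 and 62.7.

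Genes of lipid handling moved in both directions. Apoe, the apolipoprotein of lipid export, stood at 13027 CPM in dpc16 and 7180 CPM in NP (ratio 1.81, 1.66 to 1.98), and Fabp5, a fatty acid binding protein, at 186 CPM in dpc16 and 39.7 CPM in NP (4.67, 1.57 to 22.9, on 3 NP UMIs). Apoc1 was lower, at 658 CPM in dpc16 and 1099.5 CPM in NP (0.599, 0.474 to 0.764). Apoe in fibroblast-gated cells was also higher in dpc16, at 3946 CPM against 566 CPM in NP. Mgst1, a microsomal glutathione transferase, stood at 239 CPM in dpc16 and 26.5 CPM in NP (9.01, 2.46 to 75, on 2 NP UMIs), and Acaa2, a thiolase of mitochondrial fatty acid oxidation, at 153 and 13.2 CPM (11.5, 2.03 to 459.6, on 1 NP UMI).

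Several genes that signalling pathways induce were higher in dpc16. The BMP target Id3 stood at 922 CPM in dpc16 and 318 CPM in NP (2.90, 1.93 to 4.56) and Id1 at 249 and 106 CPM (2.35, 1.17 to 5.52), 2 of 5 measured genes of the BMP and activin list, with none lower. Of all measured genes 5.24% were higher and 8.88% lower. In the other keratinocytes 3 of 5 measured genes of the BMP and activin list were higher and 1 lower. The Notch target Hes1 stood at 1382 CPM in dpc16 and 636 CPM in NP (2.17, 1.63 to 2.97), while the Notch ligand gene Dll1 was the list's lower call. The Notch list thus gave 1 higher and 1 lower call among 4 measured genes. Its median log2 ratio was -0.82, against -0.26 over all measured genes. Sgk1, a kinase induced by glucocorticoids, stood at 461 CPM in dpc16 and 79.5 CPM in NP (5.80, 2.64 to 15.9), and Hbegf, an EGF receptor ligand, at 231 and 66.2 CPM (3.49, 1.47 to 10.9). The EGF family list gave 1 higher and 1 lower call among 6 measured genes, with a median log2 ratio of -0.097. The list of steroid and prolactin receptors and glucocorticoid targets also gave 1 higher and 1 lower call among 6, with a median of 0.73. The vitamin D receptor gene Vdr was lower, at 83.4 CPM in dpc16 and 185 CPM in NP (0.450, 0.250 to 0.867), but stood at 1.11 times NP in cells chosen on Sostdc1, Sult5a1 and Fst. None of the 4 measured Wnt genes was called.

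Keratin and junction genes gave calls in both directions. Krt17 stood at 1198 CPM in dpc16 and 729 CPM in NP (1.64, 1.25 to 2.2), Sox9 at 449 and 278 CPM (1.61, 1.04 to 2.64), Krt15 at 6269 and 4160 CPM (1.51, 1.34 to 1.69) and the desmosomal Perp at 2392 and 1550 CPM (1.54, 1.28 to 1.88). The hemidesmosome linker Dst was lower, at 318 CPM in dpc16 and 596 CPM in NP (0.534, 0.388 to 0.751), as was the integrin gene Itgb1, at 106 and 225 CPM (0.471, 0.278 to 0.847). The basement membrane list gave 3 lower and 0 higher calls among 13 measured genes, and its median log2 ratio of -0.43 lies near the -0.26 of all measured genes. In the junction list, whose median log2 ratio of -0.29 lies near that of all measured genes, 1 of 13 was higher and 2 lower (5.24% and 8.88% of all), the desmocollin Dsc3 among them at 353 CPM in dpc16 and 529.9 CPM in NP (0.665, 0.476 to 0.951). In the spinous list 5 of 9 measured genes were higher in summed UMIs, Sbsn among them with a UMI in 93 of 143 dpc16 and 14 of 20 NP cells. Krt10 stood at 2239 CPM in dpc16 and 1020.0 CPM in NP (2.2, 1.75 to 2.79), yet had a UMI in 68 of 143 dpc16 and 17 of 20 NP cells. Its ratio turned to 0.437 in cells thinned before selection, 0.818 in cells of at most 10000 UMIs and 0.219 in cells chosen on Sostdc1, Sult5a1 and Fst, and the median cell gave 0.164% of its UMIs to the spinous list in dpc16 and 0.308% in NP.

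Of the remaining genes with the highest dpc16 over NP ratios, Psmb8, an immunoproteasome subunit, had 104 UMIs in 59 dpc16 cells and none in NP (at least 3.31-fold higher). The histone gene Hist1h2ap had 113 UMIs in 16 dpc16 cells and none in NP (at least 3.59-fold higher). Ly6e (184 CPM in dpc16 and 13.2 CPM in NP), Gadd45g (147 and 13.2 CPM), Isg15 (136 and 13.2 CPM) and Hist1h2bc (221 and 26.5 CPM) rest on 1 or 2 NP UMIs each. Isg15, an interferon-stimulated gene, was found in 21 dpc16 cells, and 1 cell gave 37.0% of its UMIs. Among the genes with the lowest ratios, Mbp, Adm and Pyy stood at 15.2 to 44.2 CPM in dpc16 and reached 146 to 291 CPM in NP, where 1 cell gave all UMIs of each gene. Hif1a, the oxygen-regulated transcription factor, stood at 98.6 CPM in dpc16 and 384 CPM in NP (0.257, 0.166 to 0.408), with 51.7% of the NP UMIs from 1 cell, and at 0.728 times NP in cells chosen on Sostdc1, Sult5a1 and Fst. Wdr89 was spread over cells, at 128 CPM in dpc16 and 689 CPM in NP (0.185, 0.131 to 0.264), and the other keratinocytes had 128 and 711 CPM. Ociad2, Ralgps2 and Pcm1 were lower in dpc16 in both classes too, on 8 to 10 NP UMIs each, of which 1 cell gave 25% to 50%.

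**Figure D5:**
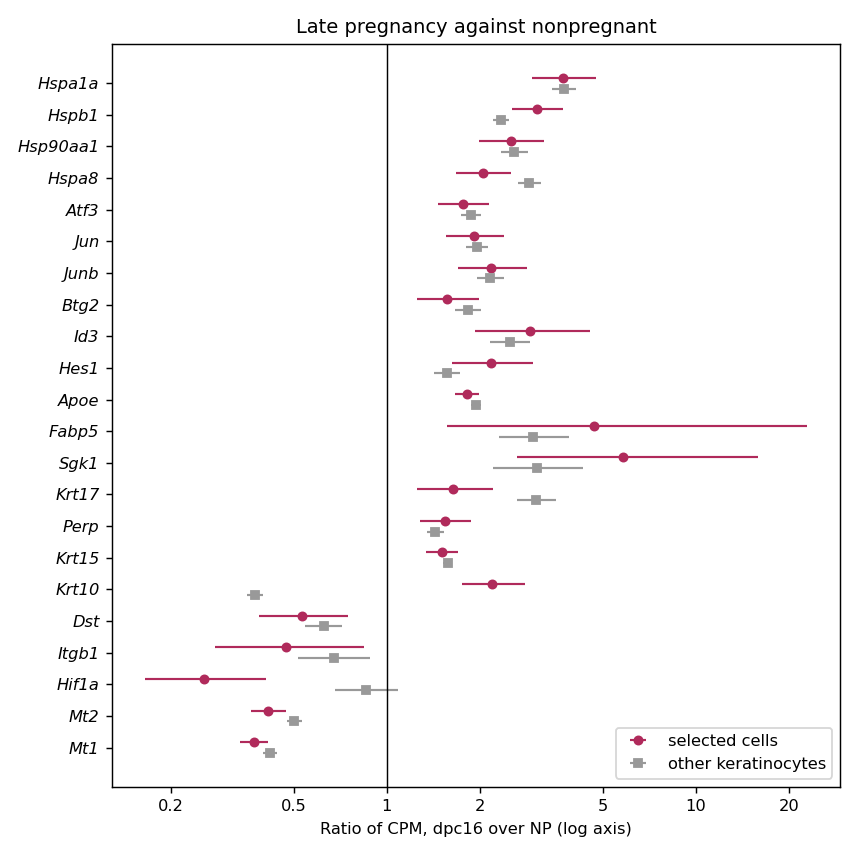
Ratio of CPM, dpc16 over NP (x axis, log scale, unitless), of 22 genes (y axis) in the selected cells and in other keratinocytes; bars are exact 95% intervals of counting error. Heat shock genes lie above 1 and Mt1 and Mt2 below 1 in both, and Krt10 lies at 2.2 in the selected cells and below 1 in other keratinocytes.

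At postpartum day 42, the comparison with NP set 107005 UMIs of 25 cells against 75489 UMIs of 20 cells, and 1182 genes were measured. Of these, 66 were higher in dpp42 (5.58%) and 49 lower (4.15%), and median-of-ratios scaling gave 60 and 60. Of the calls, 6 of 64 higher genes and 12 of 46 lower genes measured in the other keratinocytes had the same call there, and none the opposite. Among all 2824 genes measured in the other keratinocytes, 159 were higher and 153 lower. The gene lists with many calls in dpc16 had fewer here. The dpc16 comparison rested on more UMIs and measured 3075 genes, so the numbers of calls cannot be compared directly. The 18 immediate early genes gave no higher and 1 lower call, Klf2, at 46.7 CPM in dpp42 and 199 CPM in NP. Mt1 and Mt2, the 2 measured metallothioneins, gave no call, and their median log2 ratio was -0.40. In single cells the 3 metallothionein genes took a median of 0.262% of UMIs in dpp42 and 0.752% in NP. The 18 immediate early genes took 0.523% and 1.31%. In the other keratinocytes 3 of 3 metallothioneins and 8 of 18 immediate early genes were lower in dpp42 than in NP.

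Of 9 measured heat shock genes 2 were higher in dpp42, against 5.58% of all measured genes. Hspa1b stood at 1009 CPM in dpp42 and 318 CPM in NP (ratio 3.17, 2.03 to 5.17), and Hspa1a at 1607 and 980.3 CPM (1.64, 1.24 to 2.18). The 2 genes are near-identical copies, so reads could be split between them, and in cells of at most 10000 UMIs the Hspa1a ratio was 1.11. Id3 stood at 701 CPM in dpp42 and 318 CPM in NP (2.2, 1.38 to 3.65) and Id2 at 206 and 53.0 CPM (3.88, 1.32 to 15.5), 2 of 4 measured genes of the BMP and activin list. Id3 turned to 0.0986 in cells with at least 4 markers, of which there were 6 in dpp42 and 8 in NP. Hes1 stood at 1327 CPM in dpp42 and 636 CPM in NP (2.09, 1.49 to 2.96) but at 0.985 times NP in cells with at least 2 markers. Krt17 stood at 1486 CPM in dpp42 and 729 CPM in NP (2.04, 1.49 to 2.82).

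Of the 15 genes of the proliferation list, 2 were measured in this comparison, Top2a and Stmn1, and both were higher. The share of higher calls over all measured genes was 5.58%. Hmgb2, a chromatin protein abundant in dividing cells, stood at 935 CPM in 17 of 25 dpp42 cells and 159 CPM in 8 of 20 NP cells (5.88, 3.22 to 11.8). The condensin gene Smc4 stood at 252 CPM in dpp42 and 39.7 CPM in NP (6.35, 1.95 to 32.7, on 3 NP UMIs), and Stmn1 at 589 and 265 CPM (2.22, 1.33 to 3.88). Top2a stood at 234 and 53.0 CPM (4.41, 1.52 to 17.4) and Dut at 224 and 53.0 CPM (4.23, 1.45 to 16.8), but both were below NP, at 0.588 and 0.471 times, in cells thinned before selection. The other keratinocytes had 787 CPM of Hmgb2 in dpp42 and 765 CPM in NP. Cells with UMIs of at least 2 proliferation genes after thinning made up 20.0% of NP (5.73 to 43.7), 22.4% of dpc16 (15.8 to 30.1) and 32.0% of dpp42 cells (14.9 to 53.5), and 35.0, 37.1 and 32.0% without thinning. Bulge-gated cells had 6.67, 5.33 and 4.17% after thinning, and other keratinocytes 19.8, 15.5 and 25%. The selected cells thus lay above the bulge-gated cells in each library, and their intervals overlapped among the 3 stages.

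Gapdh, the glycolytic enzyme, stood at 346 CPM in dpp42 and 79.5 CPM in NP (4.35, 1.82 to 12.6) and Timp3, an inhibitor of matrix metalloproteinases, at 224 and 53.0 CPM (4.23, 1.45 to 16.8). Ly6e, Ccdc34, Ube2d2a and Hp1bp3 were higher on 1 or 2 NP UMIs each. Among the lower genes, Sat1, a polyamine acetyltransferase, stood at 280.4 CPM in dpp42 and 1126 CPM in NP (0.249, 0.158 to 0.382), and 1 NP cell gave 56.5% of its UMIs. Pmp22 (65.4 CPM in dpp42 and 490.1 CPM in NP) also rested mostly on 1 NP cell, with 64.9%. Rora, a nuclear receptor, stood at 46.7 and 291 CPM (0.160, 0.0474 to 0.434), from 2 dpp42 and 10 NP cells, and was lower in the other keratinocytes too. Igfbp3 stood at 93.5 CPM in dpp42, all from 1 cell, and 358 CPM in NP (0.261, 0.113 to 0.557).

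Between the later stages, 397 of 3014 measured genes were higher in dpp42 than in dpc16 (13.2%) and 204 lower (6.77%), so 66.1% of the calls were higher. Median-of-ratios scaling moved the log2 ratios by -0.24 and gave 238 higher and 356 lower genes, with 40.1% higher. This comparison shares the dpc16 cells with the one against NP. Of called genes measured in the other keratinocytes, 189 of 319 were higher there too and 111 of 188 lower there too. Among all 2873 genes measured in the other keratinocytes, 688 were higher and 390 lower.

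Heat shock and immediate early genes were lower in dpp42 than in dpc16. All 12 heat shock genes were measured, with 10 lower and 0 higher calls (median log2 ratio -1.05, against 0.29 over all measured genes). Of all measured genes 6.77% were lower and 13.2% higher. Hspb1 stood at 2009 CPM in dpp42 and 4779 CPM in dpc16 (0.420, 0.365 to 0.482), and Hspa1a at 1607 and 3648 CPM (0.441, 0.376 to 0.514). Hspa1b stood at 1009 CPM in dpp42 and 775 CPM in dpc16 (1.30, 1.05 to 1.60), short of the 1.5-fold threshold. The 18 immediate early genes gave 14 lower and 0 higher calls (median log2 ratio -0.71). Fos stood at 2149 CPM in dpp42 and 3472 CPM in dpc16 (0.619, 0.539 to 0.708), and Atf3 at 1626 and 2707 CPM (0.601, 0.512 to 0.701). In the other keratinocytes 8 of 12 and 14 of 18 genes of these lists were lower.

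Akr1c18 stood at 65.4 CPM in dpp42, all from 1 cell, and 1099 CPM in dpc16 (0.0595, 0.0239 to 0.123). Apoe stood at 7551 CPM in dpp42 and 13027 CPM in dpc16 (0.580, 0.539 to 0.623) and Fabp5 at 28.0 and 186 CPM (0.151, 0.0308 to 0.450), with 3 of 6 measured genes of lipid uptake lower and none higher. Mt1 stood at 4691 CPM in dpp42 and 2224 CPM in dpc16 (2.11, 1.91 to 2.33) and Mt2 at 2785 and 1592 CPM (1.75, 1.54 to 1.99), although the median cell gave 0.262% of its UMIs to metallothioneins in dpp42 and 0.245% in dpc16, and the Mt1 ratio was 0.605 in cells with at least 4 markers. The list of glycolysis and hypoxia gave 6 higher and 0 lower calls among 12 measured genes, against 13.2% and 6.77% of all measured genes, with a median log2 ratio of 0.63 against 0.29. In the other keratinocytes 1 of 11 was higher and 1 lower.

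The basement membrane list gave 2 higher and 1 lower call among 13 measured genes, close to the 13.2% and 6.77% of all measured genes, and its median log2 ratio of 0.33 lies near the 0.29 of all. Dst stood at 748 CPM in dpp42 and 318 CPM in dpc16 (2.35, 1.80 to 3.03) and Trp63, the p63 factor of basal keratinocytes, at 402 and 214 CPM (1.88, 1.31 to 2.64), both also higher in the other keratinocytes. The spinous list gave 7 lower and 0 higher calls among 9 measured genes in summed UMIs, against 4 higher and 1 lower in the other keratinocytes. The median selected cell went the other way, with 0.232% of its UMIs from this list in dpp42 and 0.164% in dpc16. Sbsn stood at 299 CPM in dpp42 and 840.3 CPM in dpc16 (0.356, 0.241 to 0.507). Krt10 stood at 1187 and 2239 CPM (0.530, 0.439 to 0.635), but had a UMI in 17 of 25 dpp42 and 68 of 143 dpc16 cells, and its ratio was 1.12 in cells thinned before selection. Of 10 measured proliferation genes 4 were higher and none lower, Mki67 among them at 112 CPM in dpp42 and 44.2 CPM in dpc16 (2.54, 1.2 to 5). The other keratinocytes shared this direction, with 7 of 9 measured proliferation genes higher and none lower. The highest ratios among genes not yet named were those of Phpt1 (112 CPM in dpp42 and 10.1 CPM in dpc16), Hoxc8, a homeobox gene of position along the trunk (121 and 16.4 CPM), Nrtn, the neurotrophic factor neurturin (271 and 41.7 CPM), and Ndufa4l2 (822 and 128 CPM). For Ndufa4l2, 1 dpp42 cell gave 59.1% of the UMIs, and the ratio was 0.536 in cells thinned before selection. Plin2, Mtch2 and Mt4 were among the genes with the lowest ratios, each on 1 or 2 dpp42 UMIs.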

How the data were processed

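Single-cell RNA was measured in 3 libraries, 1 for each stage. The deposited matrices hold UMI counts per gene and barcode that the authors made with Cell Ranger 2.2.0 on mm10 (GRCm38), per the submitters' processing notes. The sources used here do not give the annotation release or the cell calling. Cells were gated per barcode, and UMIs were summed over each class and library with Python 3.11.15, numpy 2.4.6, scipy 1.17.1 and pandas 2.3.3. Figures were drawn with matplotlib 3.10.9. No doublet caller was run and no doublets were removed.

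Each library is 1 sample, so no test was made. Ratios have exact conditional binomial 95% intervals, levels exact Poisson and shares Clopper-Pearson intervals. Only the ratio intervals were run on simulated data. These were Poisson counts without spread between cells, so the run cannot show how the intervals hold where single cells dominate. A gene was measured with at least 20 UMIs over both sums and at least 50 CPM in 1 of them, and called with a ratio of at least 1.5 and an interval without 1. Log2 ratios have 0.5 UMI added, and a sum of 0 has a floor of 3 counts over the whole class. Thinning drew 1900 UMIs per cell.

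To name genes, called genes reaching 100 CPM in 1 library were ranked by ratio. The top 10 and bottom 10 were taken in both comparisons with NP, and the top 5 and bottom 5 between the later stages. Genes of the selection, predicted, haemoglobin, ribosomal and mitochondrial genes, and genes under 0.2 times their fibroblast-gated level were left out. The last filter left out 3, 0 and 6 genes. The rule adds genes furthest from other keratinocytes and up to 7 members of each of 33 gene lists. Some genes of this set are not reported here. From the others the text gives a choice made after values were seen, and the bulge and infundibulum comparisons, EGFP and the genes of the name check were added. The selected cells and the lists were chosen with earlier results of these data known.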

Additional observations from a re-analysis of the deposited data

Results flagged for a closer look

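In summed UMIs Krt10, a keratin of spinous cells, had opposite directions in the selected cells and in the other keratinocytes. For dpc16 over NP its log2 ratio was 1.13 in the selected cells, at 2239 CPM in dpc16 and 1020.0 CPM in NP. In the other keratinocytes it was -1.42, at 1456 CPM in dpc16 and 3892 CPM in NP. For dpp42 over dpc16 the Krt10 log2 ratio was -0.91 in the selected cells, at 1187 CPM in dpp42 and 2239 CPM in dpc16, and 0.60 in the other keratinocytes, at 2214 CPM in dpp42 and 1456 CPM in dpc16. Mt4, a metallothionein of differentiating keratinocytes, had a log2 ratio of -2.51 for dpp42 over dpc16 in the selected cells, at 18.7 CPM in dpp42 and 133 CPM in dpc16. In the other keratinocytes it was 0.84, at 187 CPM in dpp42 and 105 CPM in dpc16. The Mt4 value of the selected dpp42 cells rests on 2 UMIs. These directions in the selected cells depended on the setting. For dpc16 over NP the Krt10 ratio was 0.437 in cells thinned before selection and 0.391 with at least 2 markers. It was 0.818 in cells of at most 10000 UMIs and 0.219 with at least 2 of Sostdc1, Sult5a1 and Fst. For dpp42 over dpc16 the ratios in thinned cells were 1.12 for Krt10 and 1.61 for Mt4. The other settings gave no reversal of these ratios. The 3 differences between the classes were not tested, since each rests on 1 library per stage.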

How the results depend on the processing

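No paired analysis was possible because each stage is 1 library, and no replicate could be left out. Counts of called genes are given for dpc16 over NP, dpp42 over NP, dpp42 over dpc16 and higher than in other keratinocytes in every library: 434, 115, 601 and 36 as reported. They were 179, 60, 214 and 15 in cells thinned before selection, 151, 45, 251 and 12 with at least 4 markers, and 1599, 411, 1609 and 75 with cells weighted equally and the size rule alone. With at least 2 markers the first 3 were 828, 298 and 967. The last was 19 at up to 5% mitochondrial UMIs, 13 at a ratio of at least 2 and 16 with at least 2 of Sostdc1, Sult5a1 and Fst. That choice moved the dpc16 over NP share ratio to 1.10; other settings gave 1.76 to 3.33, and dpp42 over NP gave 0.894 to 2.03.

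Of 1427 gene values from 138 ratios under 11 settings, 1104 stayed in the counting interval, 277 moved and 46 reversed, over 29 ratios. In thinned cells these were, for dpc16 over NP, Hist1h2ap 0.854 and Krt10 0.437; for dpp42 over NP, Top2a 0.588 and Dut 0.471; and for dpp42 over dpc16, Mt4 1.61, Ndufa4l2 0.536 and Krt10 1.12. Against other keratinocytes, in the least favourable library, they were Sprr1a 0.701, Fosl1 0.722, Gadd45b 0.463, Maff 0 and Pycard 1.09. With at least 4 markers (8 NP, 51 dpc16 and 6 dpp42 cells), Pyy was 2.42 for dpc16 over NP, Id3 0.0986 for dpp42 over NP and Mt1 0.605 for dpp42 over dpc16. Against other keratinocytes Dusp6 was 0.772, Phlda1 0.921, Sprr1a, Fosl1, Kdm6b and Maff 0, Lypd3 0.745, Cldn1 0.257, Sox9 0.927 and Pycard 1.2. With at least 2 markers, Ly6e was 0.907, Krt10 0.391 and Sbsn 0.478 for dpc16 over NP, Ly6e 0.788 and Hes1 0.985 for dpp42 over NP, and Pycard 1.02 against other keratinocytes. In cells of at most 10000 UMIs, Adm was 2.39 and Krt10 0.818 for dpc16 over NP. With at least 2 of Sostdc1, Sult5a1 and Fst, Adm was 1.89, Krt10 0.219, Sbsn 0.297 and Vdr 1.11 for dpc16 over NP, and Adm 5.10 for dpp42 over NP. Against other keratinocytes Phlda1 was 0.433, Sprr1a and Maff 0, Fosl1 0.844, Lypd3 0.566, Cldn1 0.881, Pycard 1.34 and Cfap57 1.24. The cause of these changes was not tested.

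Requiring 2% of Krt5 and Krt14 left 0 NP, 9 dpc16 and 0 dpp42 cells and gave no value. The settings on 10000 UMIs, on Sostdc1, Sult5a1 and Fst, and without calls where 1 cell gave over 50% of the UMIs (26, 14 and 15 calls) were chosen after seeing the data. Depth limits the NP and dpp42 sums: the deepest cell gave 16.1% of the selected UMIs in NP, 3.23% in dpc16 and 14.5% in dpp42.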
